A study of Mus musculus with 10 samples.

Results

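The genes described here are 33 genes of glycolysis and of the response to low oxygen, a list of named genes matched by symbol to the 55471 genes of the count tables. All 33 were found, and 32 of them had enough reads to be tested, among 19263 genes tested in all. Ddit4 was the gene left out. The list covers glucose and lactate transport (4 genes), the steps from glucose to fructose bisphosphate (9), lower glycolysis down to pyruvate (7), the fate of pyruvate (3), oxygen sensing (4) and targets of the hypoxia pathway (6).

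Glycolysis splits glucose into pyruvate in the cytosol and yields ATP without oxygen, and lactate dehydrogenase then turns pyruvate into lactate. Most steps can be run by several paralogs, which differ in their regulation and in the tissues that use them. When oxygen falls, prolyl hydroxylases stop marking the transcription factor subunit HIF-1 alpha for destruction, and the factor, paired with ARNT, raises glycolytic genes and genes such as Vegfa. In macrophages, microglia included, the same factor and glycolysis also rise during inflammatory activation.

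The RNA came from primary microglia of wild-type mice, grown in DMEM with serum and given gapmers, antisense oligonucleotides that lead RNase H to the RNA they bind. Both groups had a gapmer: a control gapmer in 5 libraries, and one directed against the long noncoding RNA 3222401L13Rik in 5 libraries, called knockdown here after their label. The sources used here do not give age, sex, dose or time of treatment. Nor do the labels say whether replicates were separate cultures or animals, so p-values measure the spread between these libraries, which may be technical.

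Some facts of the whole series bear on every value below. The targeted RNA held 28 to 34 reads in the control libraries and 22 to 38 in the libraries labelled knockdown (two-sided exact permutation p = 0.659), so the label is not borne out by its own target, and each direction is that of the libraries labelled knockdown. In units of 1000000 reads, library totals ran from 4.32 to 5.64 in the control libraries and from 5.59 to 6.64 in those labelled knockdown (two-sided exact permutation p = 0.0159). Reads on 1107 olfactory receptor genes were taken as background, on the assumption, not tested here, that microglia do not use these genes. They came to 0.603 ± 0.148 per 1000000 reads and kilobase of exon in control libraries and 0.259 ± 0.0678 in the knockdown-labelled ones (SD over 5 libraries each, two-sided exact permutation p = 0.00794). This density times a gene's exon length gave its background share, the percentage of its reads that could be of this kind. Among the tested genes of the list it ran from 0.262% for Hk3 to 32.1% for Pgk1. For the targeted RNA it was 48.3%, so its few reads are a weak measure of knockdown. Markers of microglia summed to 4704 to 5732 counts per 1000000 reads (CPM, scaled by edgeR's TMM method) in control and 5733 to 6582 in knockdown-labelled libraries, and 13 of the 16 were called higher and 0 lower. Of the microglia markers 13 had a background share under 5%, with 12 called higher and a median log2 fold change of 0.27. Over all genes under that share 75.3% were called higher, with a median of 0.24. With libraries scaled on such genes, 1 of the 16 was called higher and 0 lower. Tmem119, a defining marker of microglia in the brain, was low at a mean of 2.84 CPM in the control libraries, beside 586 CPM for Csf1r. Markers of astrocytes summed to 170 to 192 CPM in control and 163 to 197 in knockdown-labelled libraries, and those of neurons to 65.5 to 101 and 31.9 to 52.9. The sums were 146 to 161 and 152 to 162 CPM for the oligodendrocyte lineage, 209 to 238 and 204 to 226 for endothelium, and 82.3 to 95.6 and 66.9 to 74.1 for fibroblasts and mural cells. Of the tested markers, 0 of 9 were called higher and 8 lower for neurons, 1 and 6 of 8 for endothelium, 0 and 6 of 7 for fibroblasts and mural cells, 2 and 3 of 9 for astrocytes, and 1 and 3 of 9 for the oligodendrocyte lineage. Over all genes tested these were 22.9% and 31.3%. Median background shares of these lists were 47.9, 30.7, 83.1, 30.1 and 44.0% in the same order, against 0.427% for microglia. After background subtraction, described below, 0 neuron markers could be tested. Of 2 tested for endothelium and 1 for fibroblasts and mural cells, 0 were called. For astrocytes 0 of 4 were higher and 1 lower, and for the oligodendrocyte lineage 0 of 3 were called. The part of other cells in the results below was not tested. In bulk RNA, fewer cells of a type and less RNA per cell cannot be told apart. Counts of these markers also hold background reads, whose density was lower in the knockdown-labelled libraries. Their part in the marker calls was not tested.

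Of the 32 tested genes, 11 were higher and 1 was lower in the knockdown-labelled libraries, and 20 were not called (quasi-likelihood test of edgeR, adjusted p under 0.05 by Benjamini-Hochberg). Over all genes tested, 22.9% were called higher and 31.3% lower. The median log2 fold change was 0.14 for the 32 genes and -0.10 for all genes. Background share moved with the fold change across all genes, so the genes with a share under 5% were also taken alone. There 75.3% of 4727 genes were called higher and 0.677% lower, with a median of 0.24. The 17 listed genes under that share had 10 calls higher, 0 lower and a median of 0.17, so as a group they lay no higher than other genes of low background. Within lane 7 (replicates 1 to 3 of both groups) 13 of the listed genes were called higher and 1 lower, beside 20.7% and 28.9% of all genes tested there. Within lane 8 (replicates 4 and 5) 0 and 0 were, beside 0.328% and 0.749% of all genes. At an unadjusted p under 0.05 (edgeR), Hif1a and P4ha1 were higher and Pfkm lower within lane 8. With no filter on low counts 18 listed genes were called higher and 0 lower, beside 12% and 15% of all genes, and with a filter of 5 CPM in 5 libraries these were 4 and 1, beside 17.1% and 18.7%.

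**Figure D1:**
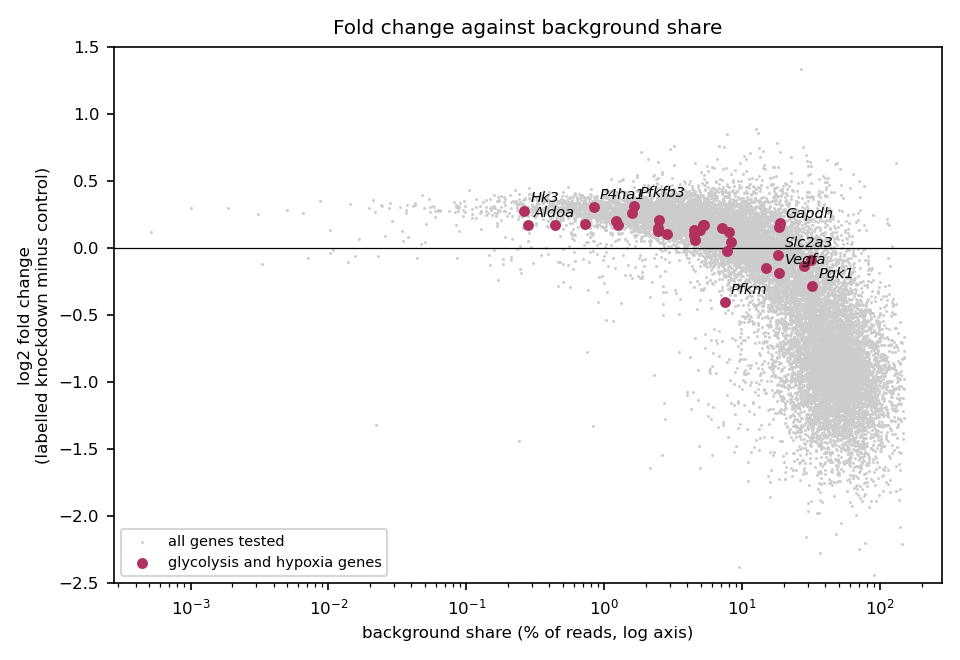
Log2 fold change, knockdown-labelled minus control (vertical axis), against background share (percent of reads, log axis) for all 19263 tested genes (grey) and the 32 tested glycolysis and hypoxia genes (red). The share is an estimate and can pass 100%. Most genes of low share lie above 0 and most genes of high share below it, and Pfkm, at a share of 7.47%, has a log2 fold change of -0.40, under which lie 2.38% of the 2778 genes with a share of 5 to 10% (median 0.14).

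When libraries were scaled on the genes with a share under 5%, the calls among the listed genes turned to 0 higher and 4 lower, beside 1.68% higher and 44.5% lower over all genes. The 4 were Pfkm, Pfkl, Ndrg1 and Vegfa. Of the listed genes 17 helped set this scaling, among them 10 of the 11 called higher with TMM. The scaling centres genes of low background near 0, so the loss of these calls was largely fixed in advance. When the background reads were also subtracted, genes with a share under 20% could be tested, 29 of the listed genes among them, and 0 were higher and 1, Pfkm, was lower. At an unadjusted p under 0.05 (edgeR), 0 were higher and 11 lower with the scaling alone, and 0 higher and 8 lower after subtraction, namely Aldoa, Hk2, Ldha, Ndrg1, Pdk1, Pfkl, Pfkm and Pkm. Over the 10219 genes of that fit 0.969% were called higher and 4.13% lower. Pfkm was therefore the 1 listed gene called in the same direction with TMM, with the low-background scaling and after subtraction. Among the 32 genes, 5 had control and knockdown-labelled CPM values that did not overlap: Pfkm, Pfkfb3, Hif1a, Egln1 and P4ha1. The share of all tested genes without overlap was not counted, so nothing particular to the list can be read from this. After subtraction Pfkfb3, Hif1a, Egln1 and P4ha1 had log2 fold changes of 0.07, 0.01, -0.03 and 0.05, none of them called.

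**Figure D2:**
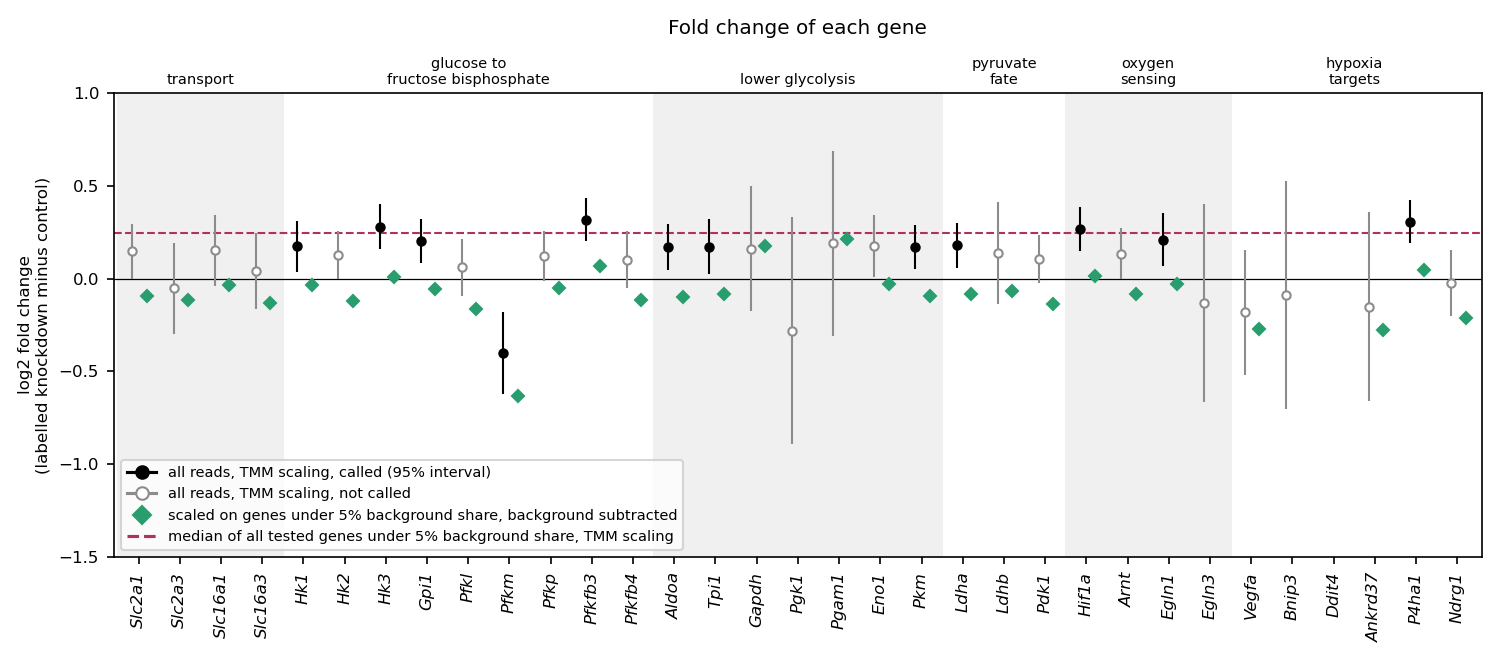
Log2 fold change of each gene (vertical axis), by role, with all reads and TMM scaling (circles, filled where called, bars 95% interval) and after scaling on low-background genes with background subtracted (diamonds). The dashed line is the median of all tested genes with a share under 5%, at 0.24. Most circles lie between 0 and that line, most diamonds lie near 0, and Pfkm lies below 0 in both. Ddit4 has no value, and Pgk1, Egln3 and Bnip3 have no diamond.

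Glucose enters these cells through facilitative transporters and lactate leaves through proton-linked ones. None of the 4 transporters was called with all 10 libraries and TMM scaling of the filtered genes. Slc2a1, which encodes GLUT1, was the main transcript of the glucose transporters measured here, with 56.1, 46.8, 64.0, 54.2 and 59.5 CPM in control replicates 1 to 5. It had 63.9, 67.2, 56.5, 63.0 and 60.8 CPM in the knockdown-labelled replicates, so the groups overlapped (log2 fold change 0.15, SE 0.07, edgeR adjusted p = 0.0831). It was called when control replicate 3 or 5 or the third knockdown-labelled library was left out (0.21, 0.19 and 0.20). Per length it stood at 16.0 ± 1.83 reads per 1000000 reads and kilobase of exon (RPKM, TMM-scaled) in the control libraries, against 2.32 ± 0.198 for Slc2a3, the high-affinity GLUT3 (SD over 5 libraries each). Of the summed RPKM of this pair, Slc2a1 held 87.2 ± 2.07% in control and 88.9 ± 1.33% in knockdown-labelled libraries (SD over 5 libraries each, two-sided exact permutation p = 0.159). The lactate transporters Slc16a1 (MCT1) and Slc16a3 (MCT4) were at like levels, 5.49 ± 0.478 and 4.87 ± 0.756 RPKM in the control libraries (SD over 5 libraries each). Their log2 fold changes were 0.15 and 0.04 (edgeR adjusted p = 0.175 and 0.743), and with no filter on low counts Slc16a1 was called higher (0.28, edgeR adjusted p = 0.0413).

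Hexokinases trap glucose in the cell as its phosphate. Hk3, the isoenzyme typical of myeloid cells, had the highest mean RPKM of the 33 genes, 142.7 ± 14.8 in the control libraries (SD over 5 libraries), above 99.0% of all tested genes. Aldoa, at 139.6 ± 14.7 RPKM, lay within that spread. RPKM uses all annotated exons, 3682 bases for Hk3 and 2911 for Aldoa. Their principal transcripts have 3219 and 1511 bases, so the order of these genes depends on the length used. It had 508, 452, 543, 523 and 602 CPM in control replicates 1 to 5 and 611, 643, 676, 597 and 662 CPM in the knockdown-labelled replicates. Only control replicate 5 reached into the knockdown-labelled range (log2 fold change 0.28, SE 0.06, edgeR adjusted p = 1.4e-04). For Hk3 the log2 fold change after background subtraction was 0.01 and not called (edgeR adjusted p = 0.911). Hk3 gave 85.7 ± 1.18% of the RPKM of the 3 hexokinases in control and 86.9 ± 0.359% in knockdown-labelled libraries (SD over 5 libraries each, two-sided exact permutation p = 0.111). Hk2, the inducible isoenzyme, gave 9.80 ± 0.923% and 8.89 ± 0.480%, and Hk1, the widely expressed one, 4.53 ± 0.296% and 4.26 ± 0.213% (SD over 5 libraries each). Hk1 was called higher (log2 fold change 0.17, edgeR adjusted p = 0.0287) and Hk2 was not (0.13, adjusted p = 0.0946). Hk1 was not called when control replicate 2 (0.15), control replicate 4 (0.17) or the third knockdown-labelled library (0.17) was left out (edgeR adjusted p from 0.0572 to 0.0697), and Hk2 was called when control replicate 3 or 5 or knockdown-labelled replicate 1 or 4 was (0.17, 0.16, 0.19 and 0.16). Gpi1, which isomerises glucose phosphate to fructose phosphate, had 205, 189, 214, 185 and 228 CPM in control and 220.1, 245, 246, 226 and 237 CPM in knockdown-labelled libraries, replicates 1 to 5 (log2 fold change 0.20, SE 0.06, edgeR adjusted p = 0.0040).

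Phosphofructokinase commits the sugar to glycolysis, and its subunits are made by Pfkl (liver type), Pfkm (muscle type) and Pfkp (platelet type). Pfkm was the 1 listed gene that fell. Its reads were 124, 104, 121, 118 and 103 in control replicates 1 to 5 and 91, 99, 96, 79 and 95 in the knockdown-labelled replicates, although the latter libraries were deeper. In CPM these were 22.6, 21.6, 22.3, 21.8 and 18.4 against 17.2, 17.1, 16.2, 14 and 16.2, and every knockdown-labelled library lay below every control library. The log2 fold change was -0.40 (SE 0.11, edgeR adjusted p = 0.0022), with a 95% interval from -0.62 to -0.18. It was -0.65 with the low-background scaling (adjusted p = 3.6e-05) and -0.63 after subtraction (adjusted p = 2.4e-04, edgeR). It was -0.38 within lane 7 (edgeR adjusted p = 0.0281) and -0.39 within lane 8, where the call was lost (edgeR adjusted p = 0.198). Leaving out each library in turn gave -0.43 to -0.34, called in all 10 fits. The fit of all genes, unfiltered for low counts, gave -0.27 and no call (edgeR adjusted p = 0.0876).

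Within the phosphofructokinases, Pfkm gave 33.6, 35.0, 29.7, 32.8 and 27.0% of the summed RPKM in control replicates 1 to 5. In the knockdown-labelled replicates it gave 26.8, 23.6, 24.8, 23.5 and 24.9%. A share within a family does not depend on how libraries are scaled. The groups did not overlap (means 31.6 ± 3.23% and 24.7 ± 1.32%, SD over 5 libraries each, two-sided exact permutation p = 0.00794, the smallest this design allows). Adjusted over the 11 shares compared, the p was 0.0582 and missed 0.05, and without control replicate 4 it was 0.0437. The difference in share was -7.73 percentage points within lane 7, -5.65 within lane 8 and -7.19 after background subtraction. Pfkp gave 24.5 ± 1.08% and 27.8 ± 1.54% (exact p = 0.0159, adjusted 0.0582), and Pfkl 43.9 ± 2.68% and 47.5 ± 1.79% (exact p = 0.0714, adjusted 0.194, SD over 5 libraries each). The size and order of the 3 shares depend on the length used. All annotated exons have 6675, 3340 and 13401 bases for Pfkl, Pfkm and Pfkp, but their principal transcripts 3730, 2879 and 4145. Mean control CPM, which uses no length, was 59.5, 21.3 and 66.5. Pfkl and Pfkp were not called themselves (log2 fold change 0.06 and 0.12, edgeR adjusted p = 0.519 and 0.120), except Pfkp when control replicate 5 was left out (0.18, edgeR adjusted p = 0.0343).

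Pfkm (ENSMUSG00000033065) spans 98092589 to 98132451 of chromosome 15 (plus strand of GRCm38), with 3340 bases of exon. Its principal transcript shared 0% of its 50-base words with any other annotated gene. A noncoding gene of the same strand, Gm26513, overlaps 10.2% of the Pfkm exons, and it was also called lower (log2 fold change -0.94, edgeR adjusted p = 0.0137, background share 40.4%). Its means were 3.46 and 1.77 CPM, against 21.3 and 16.1 CPM for Pfkm. Reads in the shared exons cannot be told apart. Pfkp overlaps Pitrm1 of the opposite strand over 5.58% of its exons, and 17.1% of the 50-base words of its principal transcript occur in another gene. The use of strand in counting is not given, so Pitrm1 reads may enter the Pfkp counts, which was not tested. Pfkm has 4 promoter windows, each of 250 bases before an annotated start. The 1 before the start nearest that of the principal transcript (5 bases from it) is shown for the gene that fell, with the reverse complement CACGT of ACGTG in capitals (RefSeq, GRCm38.p6, chr15:98108221-98108470, plus strand). It holds 1 such match and no CACGTG, an E-box, which is found only in the window of the most upstream start.
Pfkm promoter: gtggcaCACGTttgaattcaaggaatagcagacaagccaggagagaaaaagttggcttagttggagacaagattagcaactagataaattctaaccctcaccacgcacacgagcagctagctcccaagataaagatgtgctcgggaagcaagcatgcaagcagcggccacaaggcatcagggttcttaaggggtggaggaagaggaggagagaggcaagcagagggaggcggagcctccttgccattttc

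The paired enzymes of the PFKFB family make and remove the sugar phosphate that activates phosphofructokinase. Pfkfb3, the form with the higher kinase activity, had 166, 154, 174, 179 and 178 CPM in control replicates 1 to 5. In the knockdown-labelled replicates it had 222, 221, 213, 201 and 206 CPM, all above the control range (log2 fold change 0.32, SE 0.06, edgeR adjusted p = 2.0e-05). This was the largest of the 11 rises, and it was 0.07 and not called after background subtraction (edgeR adjusted p = 0.384). Pfkfb4 stood at 8.95 ± 0.618 RPKM against 22.5 ± 1.35 for Pfkfb3 in the control libraries (SD over 5 libraries each), with a log2 fold change of 0.10 (edgeR adjusted p = 0.256). Pfkfb3 held 71.5 ± 1.85% of the pair in control and 74.5 ± 0.802% in knockdown-labelled libraries (SD over 5 libraries each, two-sided exact permutation p = 0.0159, adjusted over the 11 shares 0.0582). Without control replicate 4 that adjusted p was 0.0437.

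**Figure D3:**
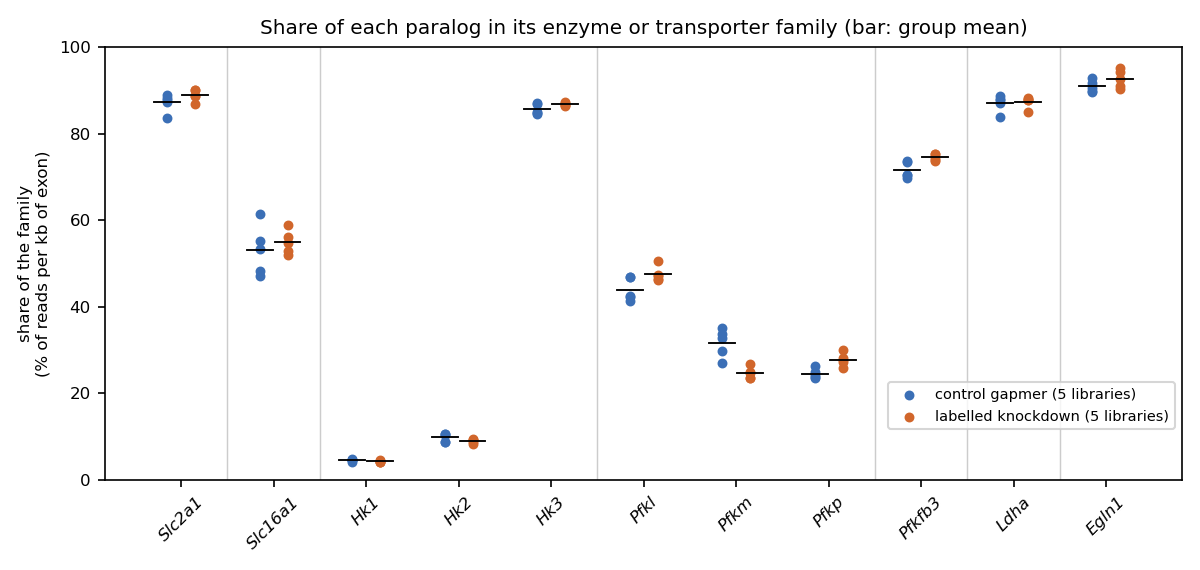
Share of each paralog in the summed RPKM of its listed family (percent, vertical axis) in each of the 5 control and 5 knockdown-labelled libraries, with bars at group means. Families of a pair show 1 member. The Pfkm shares of the 2 groups, 27.0 to 35.0% and 23.5 to 26.8%, do not overlap, and with all 10 libraries no share passed an adjusted p of 0.05.

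In lower glycolysis, 3 of 7 genes were called higher and 0 lower, with a median log2 fold change of 0.17. Over all genes tested 22.9% were called higher and 31.3% lower. The 3 called were the 3 with a background share under 5%, where 75.3% of all genes were called higher (median 0.24). Aldoa (aldolase, which splits the sugar bisphosphate) had 402, 348, 426, 392 and 464 CPM in control and 437, 506, 469.9, 435 and 439 CPM in knockdown-labelled libraries, replicates 1 to 5. The groups overlapped (log2 fold change 0.17, SE 0.06, edgeR adjusted p = 0.0163), and the call was lost without knockdown-labelled replicate 2 (0.16, edgeR adjusted p = 0.0558). Tpi1 (triose phosphate isomerase) had 80.3, 72.1, 89.6, 84.1 and 100.4 CPM in control and 82.6, 109, 91.6, 90.9 and 106 CPM in knockdown-labelled libraries. Its groups also overlapped (log2 fold change 0.17, edgeR adjusted p = 0.0456), and its call was lost without control replicate 1, 2 or 4 or knockdown-labelled replicate 2 or 5 (0.13 to 0.17, edgeR adjusted p from 0.0721 to 0.122). Pkm encodes pyruvate kinase, the enzyme of the last step. It had 458, 399.8, 461, 418 and 501 CPM in control and 485, 527, 528, 465 and 515 CPM in knockdown-labelled libraries (log2 fold change 0.17, SE 0.06, edgeR adjusted p = 0.0128). Counts per gene do not separate the M1 and M2 splice forms of Pkm. Another gene of the same strand, Gm49759, overlaps 15.3% of the Pkm exons and was not called (log2 fold change 0.16, edgeR adjusted p = 0.150). Eno1 (enolase) was not called (log2 fold change 0.18, edgeR adjusted p = 0.0658), with control replicate 2 at 31.6 CPM and the other control libraries at 40.4 to 42.9 CPM, and it was called (0.20 to 0.23) without control replicate 3 or 5 or knockdown-labelled replicate 1, 4 or 5.

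The remaining enzymes of lower glycolysis were counted at levels far below their neighbours in the pathway. Gapdh, the dehydrogenase often used as a reference transcript, had 43, 35, 56, 45 and 57 reads in control replicates 1 to 5 and 46, 56, 67, 56 and 56 in the knockdown-labelled replicates, 2.12 ± 0.336 RPKM in the control libraries (SD over 5 libraries). Aldoa stood at 139.6 ± 14.7 RPKM and Pkm at 89.5 ± 7.97 RPKM in the same libraries (SD over 5 libraries each). Pgk1 (phosphoglycerate kinase) had 15, 8, 16, 28 and 19 reads in control and 13, 13, 18, 18 and 13 in knockdown-labelled libraries, 1.42 ± 0.569 RPKM in the control ones (SD over 5 libraries). Pgam1 (phosphoglycerate mutase) had 22, 21, 23, 20 and 24 reads and 22, 33, 26, 29 and 24 reads, 2.08 ± 0.138 RPKM in the control libraries (SD over 5 libraries). Their background shares were 18.4, 32.1 and 18.7%. None of the 3 was called (log2 fold change 0.16, -0.28 and 0.19, edgeR adjusted p = 0.430, 0.445 and 0.532), and their intervals reached from -0.18 to 0.50, -0.89 to 0.33 and -0.31 to 0.69.

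These 3 genes also share much of their sequence with other annotated genes, mostly processed pseudogenes. Of the 50-base words of the principal transcript, 82.5% for Gapdh, 72.2% for Eno1, 68.0% for Pgk1, 62.4% for Bnip3 and 41.5% for Pgam1 occurred in another gene (GENCODE M21), against 34.4% for Pkm, 13.9% for Aldoa and 0% for Hk3. Gapdh had 89 near copies, defined as genes outside it that share at least 100 such words. Those copies held 4641 reads over the 10 libraries against 517 for Gapdh itself, and 7 of them held 0 reads. The sources used here do not give the read length or the treatment of reads with several matches, so the level of these genes is uncertain, and the part of shared sequence in their low counts was not tested. Pgk1 had 3 near copies with 13 reads in all, 2 of them at 0. The stretches below show what such a read would look like. Each is coding sequence of the gene with 10 bases on either side, and the capitals mark 50 bases found unchanged in other genes (62 for Gapdh, 2 for Pgk1, 2 for Pgam1 and 1 for Eno1).
Gapdh-203 bases 639 to 708: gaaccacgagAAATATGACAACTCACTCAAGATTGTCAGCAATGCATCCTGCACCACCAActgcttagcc
Pgk1-201 bases 152 to 221: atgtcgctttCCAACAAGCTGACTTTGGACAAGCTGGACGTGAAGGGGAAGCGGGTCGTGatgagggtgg
Pgam1-201 bases 258 to 327: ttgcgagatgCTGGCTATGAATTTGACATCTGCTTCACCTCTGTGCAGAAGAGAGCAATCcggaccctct
Eno1-202 bases 1115 to 1184: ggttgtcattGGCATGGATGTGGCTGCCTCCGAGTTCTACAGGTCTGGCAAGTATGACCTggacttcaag

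**Figure D4:**
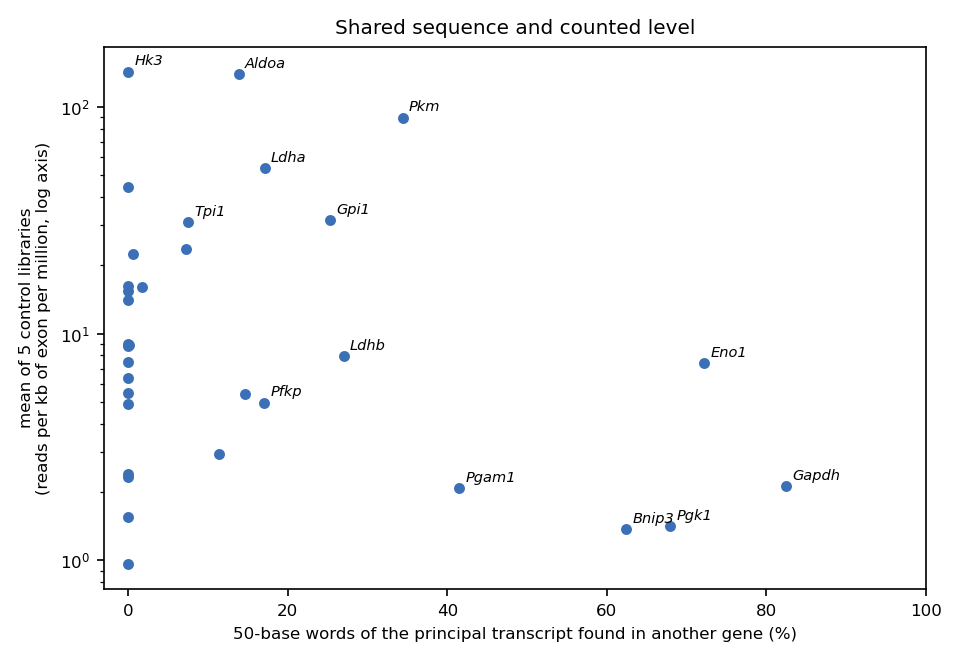
Mean RPKM of the 5 control libraries (log axis) against the percentage of 50-base words of the principal transcript that occur in another annotated gene, 1 point for each of the 33 genes. The 5 genes past 40% lie at or under 7.39 RPKM, and genes at 0% range from Ddit4 at 0.959 to Hk3 at 142.7 RPKM.

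At the fate of pyruvate, 1 of 3 genes was called higher and 0 lower, beside 22.9% and 31.3% of all genes tested. All 3 had a background share under 5%, where 75.3% of all genes were called higher. Ldha, the subunit that favours lactate formation, had 166, 162, 181, 176 and 205 CPM in control replicates 1 to 5 and 186, 213, 198, 204 and 206 CPM in the knockdown-labelled replicates, with overlap (log2 fold change 0.18, SE 0.06, edgeR adjusted p = 0.0109). Ldhb, the subunit that favours the return to pyruvate, had 15.1, 9.77, 12.7, 11.6 and 13.2 and 15.5, 13.4, 13.2, 13.6 and 13.3 CPM and was not called (log2 fold change 0.14, edgeR adjusted p = 0.399). Ldha gave 87.1 ± 1.89% of the pair in control and 87.3 ± 1.30% in knockdown-labelled libraries (SD over 5 libraries each, two-sided exact permutation p = 0.730). Pdk1, a kinase that shuts pyruvate dehydrogenase, had 98.5, 109, 110.2, 119.8 and 111 and 97.4, 127, 126, 121 and 118 CPM (log2 fold change 0.10, edgeR adjusted p = 0.166), and it was called when knockdown-labelled replicate 1 was left out (0.19, edgeR adjusted p = 0.0184).

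Of the 4 oxygen-sensing genes 2 were called higher and 0 lower, beside 22.9% and 31.3% of all genes tested. Both were among the 3 with a background share under 5%, where 75.3% of all genes were called higher. Hif1a had 143, 131, 138, 131 and 149 CPM in control replicates 1 to 5 and 155, 173, 167, 166 and 172 CPM in the knockdown-labelled replicates, with no overlap (log2 fold change 0.27, SE 0.06, edgeR adjusted p = 2.4e-04). HIF-1 alpha is controlled mainly through the stability of the protein, which RNA counts do not measure. Egln1 (PHD2), the main prolyl hydroxylase of HIF-1 alpha, had 56.6, 53.6, 55.6, 54.2 and 56.6 CPM in control and 58.6, 65.0, 71.6, 66.7 and 58.1 CPM in knockdown-labelled libraries, again with no overlap (log2 fold change 0.21, SE 0.07, edgeR adjusted p = 0.0110). After background subtraction the log2 fold changes were 0.01 for Hif1a and -0.03 for Egln1 (edgeR adjusted p = 0.912 and 0.867). Arnt, the partner of HIF-1 alpha, was not called (0.13, edgeR adjusted p = 0.0911), but it was when control replicate 5 (0.20) or knockdown-labelled replicate 4 (0.19) was left out. Egln3 (PHD3), itself raised by hypoxia in many cells, stood at 1.55 ± 0.271 RPKM in the control libraries against 15.4 ± 0.385 for Egln1 (SD over 5 libraries each), and it was not called (-0.13, edgeR adjusted p = 0.696). Egln1 gave 90.9 ± 1.31% of this pair in control and 92.7 ± 2.04% in knockdown-labelled libraries (SD over 5 libraries each, two-sided exact permutation p = 0.159).

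Among the hypoxia targets, 1 of the 5 tested was called higher and the other 4 had log2 fold changes under 0. Over all genes tested 22.9% were called higher and 31.3% lower. The called gene, P4ha1, was the only target with a background share under 5%, where 75.3% of all genes were called higher. P4ha1, a collagen prolyl hydroxylase subunit, had 186, 171, 179.6, 183 and 193 CPM in control replicates 1 to 5 and 222, 223, 241, 228 and 214 CPM in the knockdown-labelled replicates, with no overlap (log2 fold change 0.31, SE 0.06, edgeR adjusted p = 2.7e-05). After background subtraction it was 0.05 (edgeR adjusted p = 0.578). P4ha1 stood at 44.3 ± 1.99 RPKM in the control libraries (SD over 5 libraries). The other targets were far lower, from 0.959 RPKM for Ddit4 (an inhibitor of mTORC1) to 5.43 RPKM for Ndrg1 (a stress-responsive gene). Vegfa (the vascular growth factor), Bnip3 (a mitophagy receptor), Ankrd37 and Ndrg1 had log2 fold changes of -0.18, -0.09, -0.15 and -0.02 (edgeR adjusted p = 0.362, 0.823, 0.631 and 0.837). Their background shares were 18.5, 31.4, 14.8 and 7.70%, against 0.836% for P4ha1. Ddit4 had 8, 10, 8, 3 and 16 reads in control and 7, 13, 9, 15 and 10 in knockdown-labelled libraries.

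**Figure D5:**
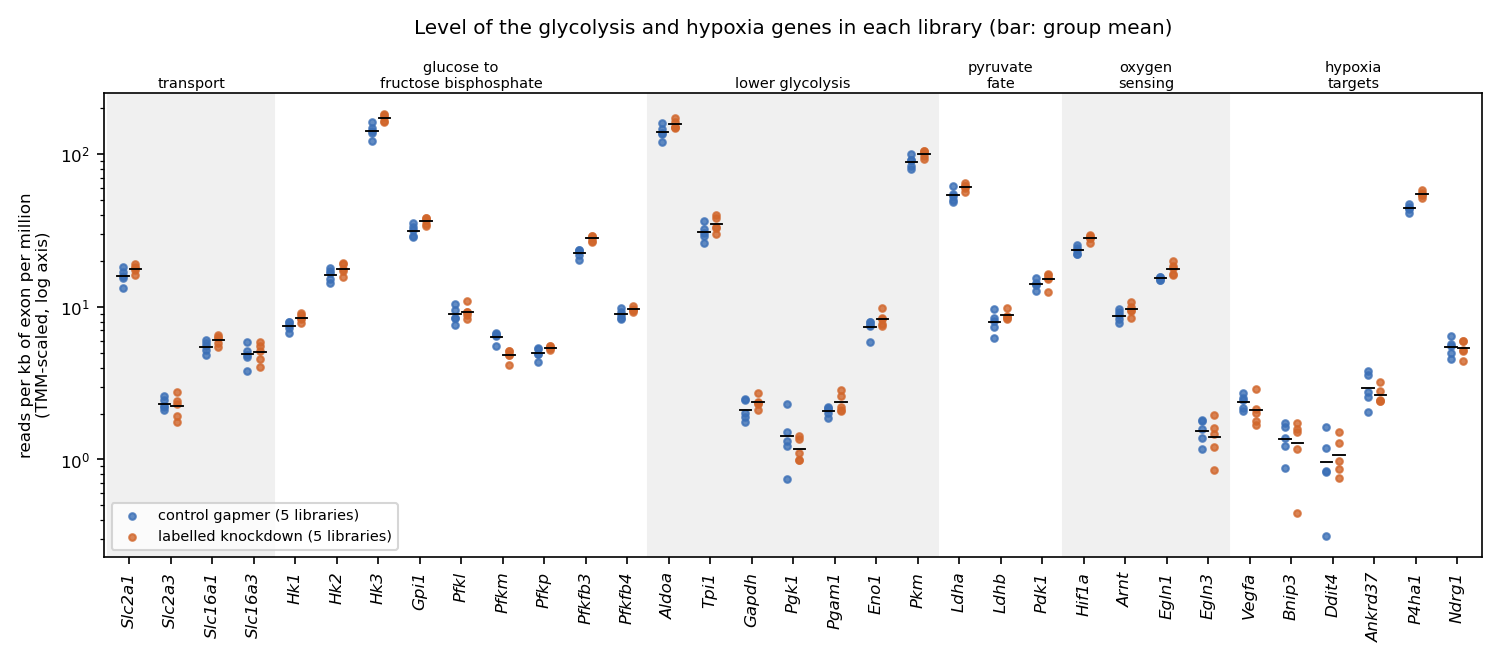
RPKM (log axis) of the 33 genes by role, in each of the 5 control libraries (blue) and 5 knockdown-labelled libraries (orange), with bars at group means. Hk3, Aldoa and Pkm lie highest, Ddit4, Bnip3, Pgk1 and Egln3 lowest, and in Pfkm every knockdown-labelled library lies below every control library.

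HIF binds a core of ACGTG or GCGTG. Promoter windows of 250 bases before an annotated start were available for 31 of the 33 genes, as 44 windows (RefSeq, GRCm38.p6), some of which overlap where a gene has several starts. ACGTG, on either strand, was found in 23 of these 44 windows (52.3%) and in 16.6% of 32851 windows of all genes. GCGTG was found in 24 of the 44 windows (54.5%) and in 28.2% of all windows, and CACGTG, which contains ACGTG on both strands, in 6.02% of all windows. The 20 genes with ACGTG in at least 1 window had 8 calls higher and 1 lower among 19 tested, with a median log2 fold change of 0.15. The 11 genes without it had 3 calls higher and 0 lower, with a median of 0.14, but 9 of these 11 held GCGTG, and Gpi1 and Tpi1, both called higher, held neither core. With 1 window per gene, the 1 nearest the principal start, 17 genes had ACGTG (6 calls higher and 1 lower among 16 tested, median 0.15) and 14 had none (5 higher and 0 lower, median 0.15). A match is a run of letters and not a bound site. The windows of 4 genes are shown because they span the results: Pfkfb3 and P4ha1 with the largest rises, Ldha with the most matches (5), in the window of its upstream start, and Pgk1 with 2 matches and no call. Matches were counted on each strand, so a CACGTG gave 2 matches. The Ldha window holds 2 CACGTG and the Pgk1 window 0. Capitals mark ACGTG or its reverse complement CACGT, and each window is written in the direction of its gene. The other window of Ldha, nearer its principal start, holds 0 matches. The windows are chr2:11502091-11502340 (minus strand) for Pfkfb3, chr10:59323046-59323295 (plus strand) for P4ha1, chr7:46845554-46845803 (plus strand) for Ldha and chrX:106186850-106187099 (plus strand) for Pgk1.
Pfkfb3 promoter: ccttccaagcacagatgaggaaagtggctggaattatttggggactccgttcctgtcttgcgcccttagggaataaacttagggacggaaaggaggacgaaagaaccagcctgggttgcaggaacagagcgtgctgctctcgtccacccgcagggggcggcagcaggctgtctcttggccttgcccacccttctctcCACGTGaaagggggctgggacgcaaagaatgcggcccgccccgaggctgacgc
P4ha1 promoter: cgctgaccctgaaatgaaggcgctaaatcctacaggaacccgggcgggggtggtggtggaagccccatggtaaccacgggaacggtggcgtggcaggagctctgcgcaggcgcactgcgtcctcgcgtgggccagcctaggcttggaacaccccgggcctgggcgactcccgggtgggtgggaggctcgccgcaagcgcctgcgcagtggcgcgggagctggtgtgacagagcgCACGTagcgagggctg
Ldha promoter: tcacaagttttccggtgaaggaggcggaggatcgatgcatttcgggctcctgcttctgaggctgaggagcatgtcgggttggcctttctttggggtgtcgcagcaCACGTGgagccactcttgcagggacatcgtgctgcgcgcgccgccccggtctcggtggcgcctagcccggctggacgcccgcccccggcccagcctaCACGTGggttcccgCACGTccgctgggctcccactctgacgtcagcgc
Pgk1 promoter: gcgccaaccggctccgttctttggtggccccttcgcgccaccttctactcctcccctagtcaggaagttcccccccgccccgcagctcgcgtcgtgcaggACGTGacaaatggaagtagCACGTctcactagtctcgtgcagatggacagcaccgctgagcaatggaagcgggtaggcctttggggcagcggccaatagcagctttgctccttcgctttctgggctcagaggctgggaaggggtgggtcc

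Other genes of these pathways were described in the same fit, by counts and medians beside the 22.9% higher and 31.3% lower of all genes. The pentose phosphate pathway branches from glucose phosphate and makes NADPH and ribose: 7 of its 10 genes were called higher and 0 lower, with a median log2 fold change of 0.22, among them Prps2 (0.30), Taldo1 (0.27), Tkt (0.24) and Pgd (0.20). Of these 10, 8 had a background share under 5%, and 6 of the 8 were called higher (median 0.22), near the 75.3% and 0.24 of all genes under that share. At the entry of pyruvate into mitochondria 4 of 14 tested genes were called higher and 0 lower (median 0.10): Pdk3 (0.44), Pdp1 (0.40), Pdha1 (0.30) and Dld (0.25). Under a 5% share there were 5, of which 3 were called higher (median 0.25). Pdp1 removes, and Pdk3 adds, the phosphate that shuts pyruvate dehydrogenase, and both rose. Of 15 further oxygen-sensing genes 8 were called higher and 2 lower (median 0.19). The risers included Cited2 (0.31), an inhibitor of HIF, and the chaperone Hsp90ab1 (0.28), and the 2 that fell were Arnt2 (-0.77) and Hif3a (-0.95). All 8 calls higher were among the 10 genes with a share under 5% (median 0.20), so these too lay near the genes of low background. Of 34 further hypoxia targets 13 were called higher and 5 lower (median 0.14). Tfrc (0.34), Sap30 (0.34), Nampt (0.33) and Hmox1 (0.30) rose, and 11 of the 34 had a share under 5% with 8 called higher (median 0.25). The 5 that fell were Stc2 (-1.24), Car12 (-1.01), Loxl2 (-1.11), Ak4 (-1.09) and P4ha2 (-0.57). Of 24 further glycolytic isoenzymes and transporters 2 were called higher and 4 lower (median -0.04): Bsg, the chaperone of lactate transporters, rose by 0.28, while Pklr (-0.94), Slc2a4 (-0.85), Slc2a2 (-1.03) and Hkdc1 (-0.77), typical of other tissues, fell. The 11 genes of these lists that fell had background shares of 24.9 to 64.0%, and the named ones that rose had shares of 0.0647 to 6.04%. After scaling on low-background genes with subtraction, 0 genes of these lists were called in either direction, and 3 were higher and 4 lower at an unadjusted p under 0.05 (edgeR).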

How the data were processed

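Total RNA of 10 libraries was sequenced with a random-primed stranded kit, per the labels' protocols. Each library has 1 deposited table of read counts per gene, whole numbers with no scaling by the authors visible in them. Reads were demultiplexed with bcl2fastq and mapped to GRCm38, per the submitters' processing notes. The sources used here do not name the aligner, the counter, its use of strand or the annotation. Rows of 92 spike-in sequences were left out. GENCODE M21 gave names and exon lengths for 55230 genes, and the 241 unmatched genes held 0.0107% of reads. One listed symbol, Aldoa, had 2 gene IDs, and the one with more reads was used.

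Groups came from the titles. Genes were filtered with filterByExpr, scaled with TMM and tested with the quasi-likelihood test of edgeR 4.0.16 (R 4.3.3), adjusted over all tested genes (Benjamini-Hochberg, 0.05). Single values were compared by exact two-sided permutation over 252 ordered splits. Shares within families used reads per kilobase of exon. Subtracted background was the olfactory receptor density times exon length, and genes under a 5% share set the scaling. Sequence sharing was counted in 50-base words of annotated transcripts, and motifs in RefSeq promoter windows. Alternatives were DESeq2 1.42.0, scaling by the upper quartile or by totals alone, no filter, a filter of 5 CPM in 5 libraries, the replicate number as a block, lane, each lane alone, named copies added and each library left out. The length of the principal transcript was added as an alternative after the data were seen. The test was tried on simulated counts.

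The genes and lists were chosen with earlier results of these data known. All 33 genes are named, with values per library for the most abundant gene of each family or step, for those called lower or far from their group in 1 library, and for some others chosen after their values were seen. Up to 4 called genes with the smallest p stand for each other list, and the falling ones named beyond these were chosen after their values were seen.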

Additional observations from a re-analysis of the deposited data

Results flagged for a closer look

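In each gene's control and knockdown-labelled CPM values, and in each paralog share, the highest and the lowest of the 5 libraries were compared with the rest of their group. Of 88 groups checked, 4 had a library whose gap to the nearest other exceeded 0.71 of the group's range. Chance alone gives about 1 in 20 groups. Pfkm was at 18.4 CPM in control replicate 5 and at 21.6 to 22.6 CPM in the other control libraries, and the lowest control library still lay above all knockdown-labelled ones. Eno1 was at 31.6 CPM in control replicate 2 and at 40.4 to 42.9 CPM in the other control libraries. Ldhb was at 15.5 CPM in knockdown-labelled replicate 1 and at 13.2 to 13.6 CPM in the others of its group. The share of Ldha in the lactate dehydrogenases was 85.1% in knockdown-labelled replicate 1 and 87.6 to 88.3% in the others of its group.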

How the results depend on the processing

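Over 696 fold changes of the listed genes under other settings, 525 kept direction and side of the threshold, 48 lost and 33 gained a call, 21 turned with a call on 1 side, and 69 turned with no call on either. The median log2 fold change of all genes was -0.10 with TMM, -0.03 with DESeq2, -0.24 with the upper quartile, -0.30 with library totals, -0.34 when scaled on low-background genes, -0.51 with no filter and 0.014 with the stricter filter. Calls over all genes, higher and lower, went from 4418 and 6033 to 4997 and 5055 (DESeq2), 1685 and 7195 (upper quartile), 759 and 7888 (totals), 323 and 8577 (low-background scaling), 5821 and 7282 of 48620 tested (no filter) and 2057 and 2239 of 12005 (stricter filter). The listed genes called higher, 11 with TMM, were 16 with DESeq2, 4 with upper-quartile scaling, 2 with totals, 18 with no filter, 4 with the stricter filter, 0 in lane 8 alone, 0 with the low-background scaling and 0 with subtraction. The 5 gained with DESeq2 were Slc2a1, Hk2, Pfkp, Eno1 and Arnt. Those called lower, 1 with TMM, were 2 with library totals, 0 with no filter (Pfkm -0.27, adjusted p = 0.0876), 0 in lane 8 alone and 4 with the low-background scaling. Of the other pathway lists 34 genes were called higher and 11 lower. These became 13 higher with upper-quartile scaling, 6 and 17 with totals, 14 higher with the stricter filter, 0 and 20 with the low-background scaling, and 0 and 0 with subtraction. With library totals Hk1, Gpi1, Aldoa, Tpi1, Pkm and Ldha turned to -0.032, -0.0024, -0.034, -0.034, -0.033 and -0.024. With the low-background scaling Hk1, Gpi1, Pfkl, Aldoa, Tpi1, Pkm, Ldha and Egln1 turned to -0.071, -0.041, -0.18, -0.073, -0.072, -0.072, -0.063 and -0.034, and with subtraction the same genes other than Pfkl went to -0.034, -0.055, -0.10, -0.086, -0.10, -0.084 and -0.030. The cause was not tested.

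Leaving out each library gave 9 to 16 calls higher and 1 lower. Hk1 was called in 7 of these 10 fits, Tpi1 in 5, Aldoa in 9, and the other 8 genes called higher in 10. The change in share ranged from -8.06 to -6.05 points for Pfkm and from 2.53 to 3.50 for Pfkfb3, and in lane 8 alone that of Hk2 was 0.0678 points. Adding named copies left Tpi1 uncalled. With the replicate number as a block 11 listed genes were higher and 1 lower, and over all genes 4405 and 5949 were. Same-numbered libraries correlated at -0.098 to 0.160 except -0.213 for number 2, and 1 of 5 numbers matched its own best, so the numbers were not taken as pairs. Genes under about 30 reads a library, such as Pgk1, had intervals too wide to show a change of the size called elsewhere.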
